A study of Mus musculus with 18 samples.

Results

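The genes described here are 9 components of the B cell antigen receptor (BCR) and of the machinery that restrains it. They are *Cd79a* and *Cd79b*, the inhibitory receptors *Cd22*, *Siglecg*, *Fcgr2b* and *Cd72*, the enzymes *Lyn* and *Ptpn6*, and the tetraspanin *Cd81*. They were picked by name and found by their Entrez numbers, so the rule itself uses no measured value, although earlier results of these data were known when it was set. All 9 were present among the 28096 genes of the count tables, and all 9 passed the filter on low counts that left 14161 genes for testing.

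RNASeq was performed on 18 libraries of splenic B cells from C57BL/6 N mice at least 8 weeks old, 3 for each combination of genotype and condition. Cells came from wild-type (WT) mice or from Ubiquilin-1 KO mice (*Ubqln1*-/-), whose germline lacks exon 2 of *Ubqln1* after Cre expression in the embryonic stem cells, so that every cell of the mouse carries the deletion. B cells were isolated with a Miltenyi Biotec kit, plated, and left resting or given F(ab)2 anti-IgM at 10 μg/mL, which crosslinks the BCR, or K12 E.coli LPS at 20 μg/mL, which acts through the Toll-like receptor TLR4, for 4 hr. Each library was made from pooled triplicate wells and the 3 libraries of a group are biological replicates per the study design. The effect of each stimulus and of the loss of *Ubqln1* on these genes was compared.

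The membrane immunoglobulin of the BCR carries no ITAM signaling motif of its own. It is held by CD79A and CD79B, whose cytoplasmic ITAM motifs are phosphorylated by Src-family kinases such as LYN and then recruit the kinase SYK. CD22, Siglec-G, FcγRIIB and CD72 carry inhibitory ITIM motifs, which LYN also phosphorylates and which recruit phosphatases such as SHP-1, the product of *Ptpn6*. CD81 is a tetraspanin, a membrane protein that organises other surface proteins.

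The promoters of 7 of the 9 genes were in the RefSeq table of GRCm38.p6, as 250 bases before and 50 bases after each annotated start. *Cd79b* and *Lyn* had no entry. Those of *Cd79a*, *Cd22* and *Siglecg* are printed 5′ to 3′ on the strand of the gene because these are the 3 genes that fell most after anti-IgM in WT cells, and that of *Cd72* because it was the 1 gene that rose. Capitals mark the letters matched by the motifs searched.

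Cd79a, plus strand, chr7:24897247-24897546: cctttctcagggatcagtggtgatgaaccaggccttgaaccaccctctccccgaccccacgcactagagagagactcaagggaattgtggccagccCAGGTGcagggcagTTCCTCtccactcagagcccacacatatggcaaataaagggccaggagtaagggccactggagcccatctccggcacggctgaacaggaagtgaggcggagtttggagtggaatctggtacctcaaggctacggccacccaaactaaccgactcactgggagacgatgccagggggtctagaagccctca
Cd22, minus strand, chr7:30878979-30879278: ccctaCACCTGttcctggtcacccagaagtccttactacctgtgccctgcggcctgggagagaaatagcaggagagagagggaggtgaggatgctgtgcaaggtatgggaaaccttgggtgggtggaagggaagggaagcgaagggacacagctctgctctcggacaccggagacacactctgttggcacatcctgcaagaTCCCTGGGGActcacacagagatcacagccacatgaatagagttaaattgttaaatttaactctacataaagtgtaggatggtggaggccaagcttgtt
Siglecg, plus strand, chr7:43407989-43408288: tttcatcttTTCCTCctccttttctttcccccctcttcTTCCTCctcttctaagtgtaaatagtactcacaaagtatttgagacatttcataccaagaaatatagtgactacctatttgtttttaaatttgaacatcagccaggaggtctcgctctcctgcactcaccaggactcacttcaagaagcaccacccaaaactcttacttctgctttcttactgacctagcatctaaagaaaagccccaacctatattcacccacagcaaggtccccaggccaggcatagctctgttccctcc
Cd72, minus strand, chr4:43454577-43454876: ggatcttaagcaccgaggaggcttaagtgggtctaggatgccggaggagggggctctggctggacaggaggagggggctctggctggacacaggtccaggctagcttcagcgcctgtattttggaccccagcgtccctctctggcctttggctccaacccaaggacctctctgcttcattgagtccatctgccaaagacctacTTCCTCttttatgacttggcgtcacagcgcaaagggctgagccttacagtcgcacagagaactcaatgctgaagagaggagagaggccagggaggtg

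Motifs were searched on both strands. The PU box GAGGAA, recognised by PU.1, occurred once in the *Cd79a* promoter, once in that of *Cd72* and 2 times in that of *Siglecg*, in each case on the opposite strand, where it reads TTCCTC. The E-box CAGGTG, bound by E2A, occurred in *Cd79a*, in *Cd22* on the opposite strand as CACCTG, and in *Ptpn6*. The *Cd22* promoter also held a match to the palindromic core bound by EBF1, 49 bases before the start. Of all 32851 promoters of this length, 28.3% held the PU box, 20.2% the E-box and 0.904% the EBF1 core. The octamer ATGCAAAT, the NF-kB motif and the cAMP response element TGACGTCA were in none of the 7 genes, and they were in 1.74%, 0.155% and 1.79% of all promoters. TATAAA was found 6 bases after the start of *Cd81* (13.6% of promoters), and the *Fcgr2b* window and a second annotated start of *Siglecg* held no match. These are matches of letters only.

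Library totals ranged from 15368941 to 41072854 counts with a median of 23257531, and no 2 libraries held the same counts. *Ubqln1* reads, counted over the whole gene, lay between 230 and 339 CPM, the count relative to the library size, in WT libraries and between 91.4 and 128 in *Ubqln1*-/- libraries, so no library went against its genotype label. Transcript outside the deleted exon still counts toward these values. Among markers, *Cd3d*, *Cd3e*, *Cd3g*, *Cd4* and *Thy1* of T cells were at 0.319 CPM or less in every library and *Cd8a* at 1.09 or less. The 6 neutrophil markers summed to 1.04 CPM or less, 5 natural killer markers to 4.83 or less and 4 red cell markers to 4.29 or less. The T cell sum was carried by *Lck*, at 30.7 to 66.4 CPM in resting and LPS libraries and 122 to 222 with anti-IgM. The plasma cell sum of 4 genes, which include *Irf4*, lay between 635 and 886 CPM in resting WT cells and between 2091 and 2358 with anti-IgM. *Irf4* carried this rise, with a median of 421 CPM at rest and 1954 with anti-IgM. The medians of the others were lower with anti-IgM: *Sdc1* went from 69.8 to 34.1, *Prdm1* from 28.7 to 20.3 and *Jchain* from 190 to 167. The 5 dendritic cell markers summed to 13.7 to 23.2 CPM at rest and 41.9 to 72.5 with LPS in WT cells.

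Levels are given as RPKM, the count scaled by the gene's counted width and by the TMM-scaled library size. In resting WT cells the signal chains stood far above the other genes, with *Cd79b* at 1825 ± 86.6 RPKM (SD, n = 3) and *Cd79a* at 1008 ± 66.3, ranks 11 and 35 among the 14161 genes tested. *Cd72* (289 ± 47.2), *Ptpn6* (285 ± 49.2), *Cd22* (232 ± 60.7) and *Siglecg* (152 ± 39.8) followed, and neighbours among these 4 overlapped in their 3 values. *Lyn* (118 ± 2.35), *Cd81* (101 ± 1.53) and *Fcgr2b* (90.0 ± 12.3) were lowest, with *Lyn* above *Cd81* in every library and *Cd81* overlapping *Fcgr2b*. After anti-IgM the order was different, with *Cd72* (523 ± 75.2) overlapping *Cd79b* (654 ± 92.5) at the top in WT cells. *Cd79a* (295 ± 50.5) was then level with *Ptpn6* (301 ± 53.7). *Siglecg* (19.6 ± 3.87) was last, below *Fcgr2b* (36.8 ± 4.83) in every library.

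**Figure D1:**
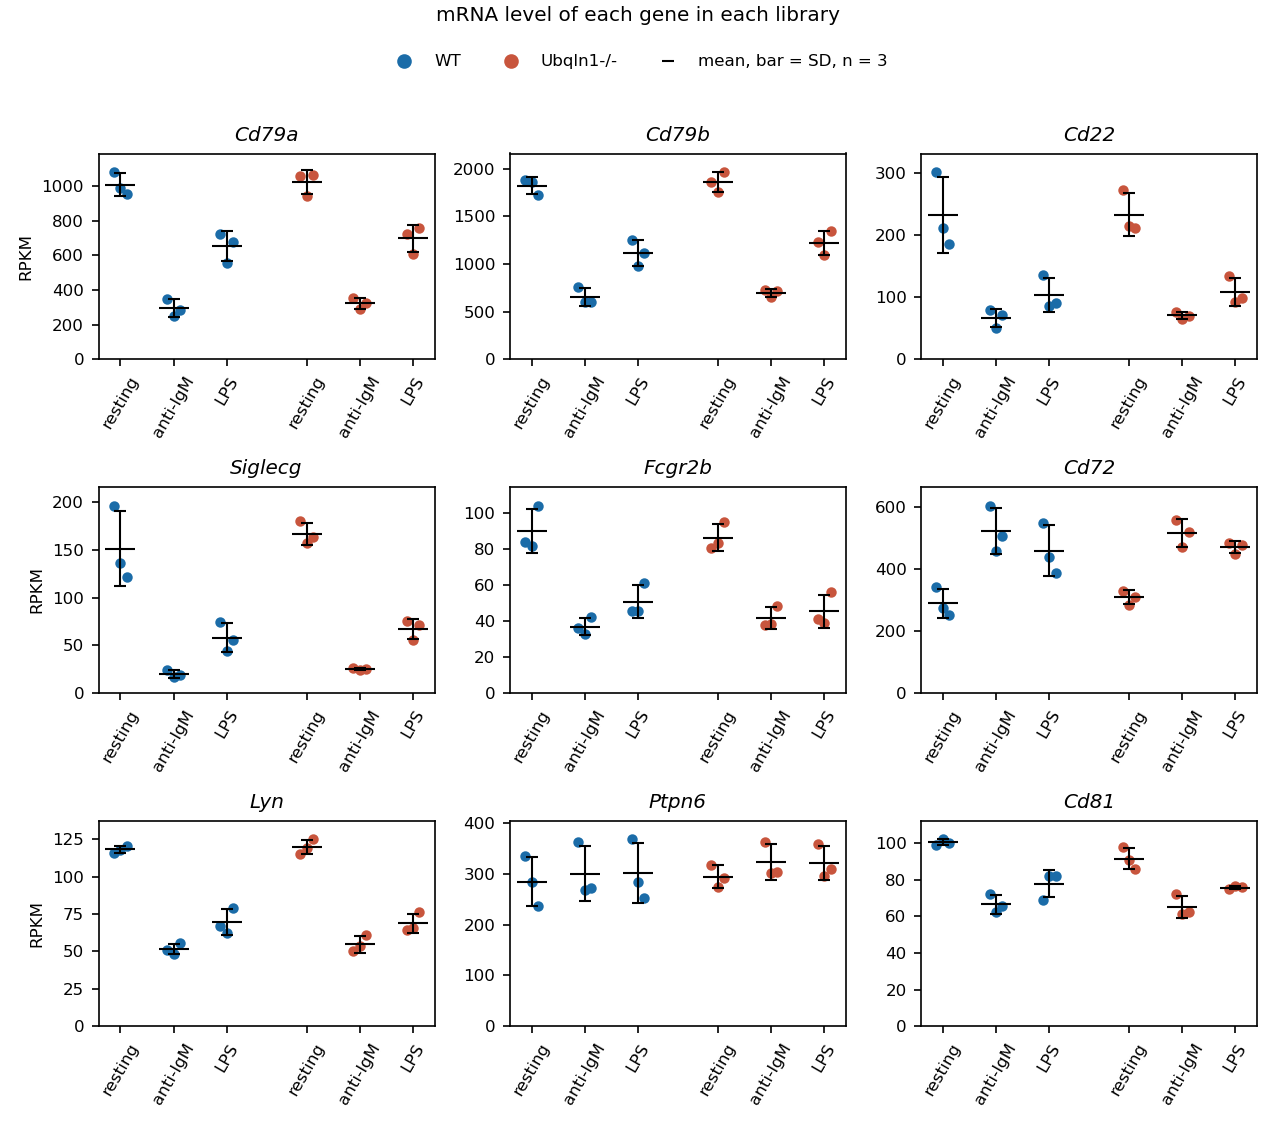
Level of each of the 9 genes in each library (vertical axis, RPKM, from 0, a separate scale for each gene), with WT in blue and *Ubqln1*-/- in red. Points are libraries, the short line is the mean of 3 and the bar its SD. *Siglecg* falls from 152 to 19.6 RPKM with anti-IgM in WT cells, *Cd72* rises from 289 to 523 and *Ptpn6* stays between 237 and 369 in all 18 libraries.

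Both stimuli lowered 7 of the 9 mRNAs and raised 1. After anti-IgM in WT cells *Siglecg*, *Cd22*, *Cd79a*, *Cd79b*, *Fcgr2b*, *Lyn* and *Cd81* fell, *Cd72* rose, and *Ptpn6* did not pass the test. The threshold was an adjusted p under 0.05 in edgeR's quasi-likelihood test over all genes tested. By this threshold 32.2% of all genes were lower and 32.4% higher, so a single call is common in these cells. With a log2 fold change beyond 1 as well, 6 of the 9 were lower, against 11.1% of all genes. The median log2 fold change of the 9 was −1.29, where that of all genes was −0.01. *Ubqln1*-/- cells gave the same 7, 1 and 1 calls (32.4% of genes lower and 32.9% higher), 6 of them lower by more than 1 (10.7%), with a median of −1.13.

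LPS gave the same 7 lower, 1 higher and 1 not called in each genotype. The background was 30.1% lower and 31.2% higher in WT cells, and 30.2% and 30.6% in *Ubqln1*-/- cells. The median was −0.71 for WT cells and −0.60 without *Ubqln1*. With LPS *Siglecg* and *Cd22* alone among the 9 fell by more than 1, as did 7.94% of all genes in WT and 8.12% in *Ubqln1*-/- cells. In these bulk libraries fewer cells of a type cannot be told apart from less RNA per cell. The 3 stimulated and the 3 resting libraries did not overlap for 8 of the 9 genes in each of these 4 comparisons, where the share of all genes was 66.2% and 71.3% for anti-IgM and 62.3% and 67.6% for LPS, in WT and *Ubqln1*-/- cells in turn. The anti-IgM and LPS comparisons of a genotype share its resting libraries.

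**Figure D2:**
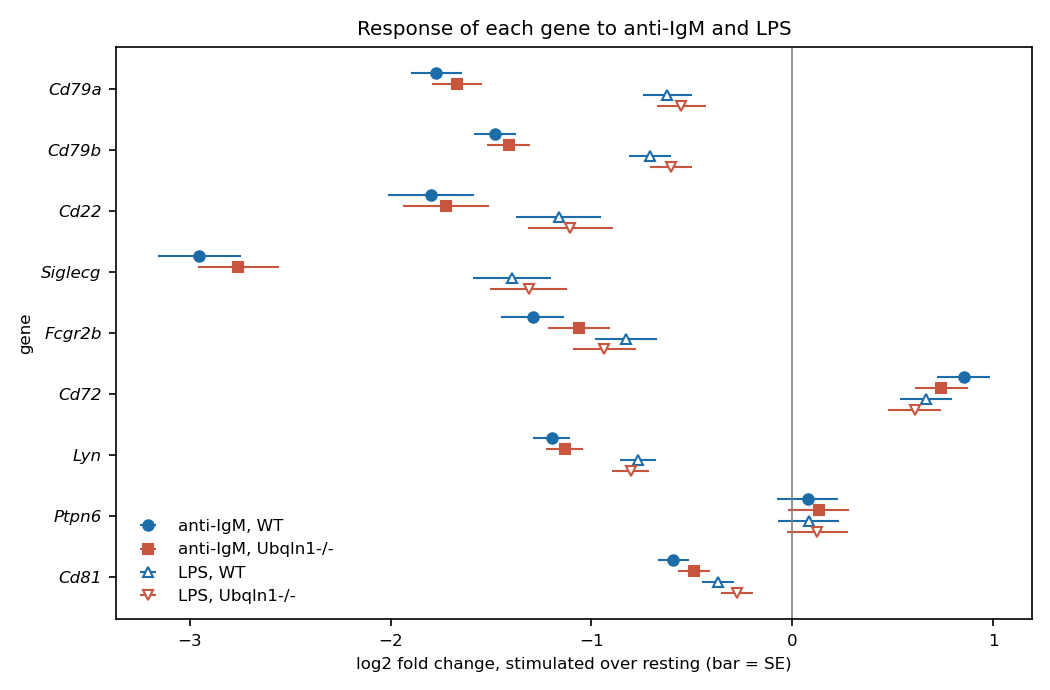
Log2 fold change of each gene after 4 hr, stimulated over resting (horizontal axis), with its standard error as a bar. Filled marks are anti-IgM and open marks LPS, with WT in blue and *Ubqln1*-/- in red. *Siglecg* reaches −2.95 with anti-IgM in WT cells, *Cd72* lies to the right of 0 in all 4 comparisons and *Ptpn6* lies within 0.13 of it.

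*Cd79a* (Entrez gene 12518, GRCm38 chromosome 7, 24897497 to 24901858) encodes Igα, the first of the signal chains. It stood at 1082, 990 and 953 RPKM in resting WT cells, at 351, 252 and 282 after anti-IgM, and at 727, 558 and 680 after LPS. The groups were in 3 separate bands, with anti-IgM lowest. The log2 fold change was −1.77 with anti-IgM (SE 0.13, edgeR adjusted p = 5.1e-09) and −0.62 with LPS (SE 0.12, adjusted p = 0.000333). Its *Ubqln1*-/- libraries held 946 to 1064, 288 to 352 and 609 to 761 RPKM, again without overlap.

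*Cd79b* (Entrez gene 15985, chromosome 11, 106311341 to 106314562) encodes Igβ, the partner of Igα. Resting WT cells held 1887, 1861 and 1726 RPKM, anti-IgM cells 761, 600 and 601, and LPS cells 1255, 975 and 1117. Each LPS library lay between the resting and the anti-IgM values. The log2 fold change was −1.48 with anti-IgM (SE 0.11, adjusted p = 5.67e-09) and −0.71 with LPS (SE 0.10, adjusted p = 1.96e-05).

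The chains did not fall in step. The ratio of *Cd79a* to *Cd79b*, per length, was 0.552 ± 0.0207 (SD, n = 3) at rest in WT cells, 0.450 ± 0.0262 with anti-IgM and 0.587 ± 0.0193 with LPS. The values in *Ubqln1*-/- cells were 0.550 ± 0.0183, 0.460 ± 0.0233 and 0.570 ± 0.0168. In both genotypes the highest anti-IgM ratio, 0.469 in WT and 0.486 in *Ubqln1*-/-, was below the lowest resting ratio, 0.532 and 0.539. The WT LPS libraries (0.572 to 0.609) overlapped the resting ones (0.532 to 0.573).

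*Siglecg* (Entrez gene 243958, chromosome 7, 43408192 to 43418349) encodes Siglec-G, a sialic acid-binding receptor that limits BCR calcium signals. It had the largest fold change of the 9 genes with either stimulus. Resting WT cells held 197, 137 and 121 RPKM, anti-IgM cells 23.7, 16.1 and 18.9, and LPS cells 73.8, 43.3 and 55.7. Every anti-IgM library was below every LPS library, and these were below every resting one. The log2 fold change with anti-IgM was −2.95 (SE 0.21, adjusted p = 4.13e-09), which left 12.9% of the resting level. Only 0.395% of the genes tested fell further. It was also the 1 gene of the 9 past the study's own thresholds, a log2 fold change over 2 with an adjusted p under 0.001, with anti-IgM in WT cells (2.04% of genes lower) and without *Ubqln1* (1.85%). With LPS the change was −1.40 (SE 0.19, adjusted p = 9.96e-06).

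*Cd22* (Entrez gene 12483, chromosome 7, 30865404 to 30880342) encodes the Siglec that binds α2,6-linked sialic acid on neighbouring glycoproteins. Its levels were 301, 210 and 185 RPKM in resting WT cells, 78.4, 50.6 and 71.2 with anti-IgM, and 135, 85.9 and 90.2 with LPS. The 3 groups did not overlap, although the resting values spread widely (coefficient of variation 26.2%). The fall was −1.80 with anti-IgM (SE 0.22, adjusted p = 1.53e-06) and −1.16 with LPS (SE 0.21, adjusted p = 0.00016).

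*Fcgr2b* (Entrez gene 14130, chromosome 1, 170960558 to 170976071) encodes the inhibitory Fc receptor, which the F(ab)2 form of anti-IgM cannot engage because it lacks the Fc part. It stood at 84.0, 81.9 and 104 RPKM at rest, 35.8, 32.6 and 42.1 with anti-IgM, and 45.5, 45.6 and 61.1 with LPS in WT cells. The resting libraries were all above the stimulated ones. The log2 fold change was −1.29 with anti-IgM (SE 0.16, adjusted p = 1.67e-06) and −0.83 with LPS (SE 0.15, adjusted p = 0.000185).

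*Fcgr2b* and *Lyn* are also expressed by macrophages, so markers of that lineage are given beside them. The 7 monocyte and macrophage markers (5 of them tested) summed to 22.5 to 49.4 CPM in resting WT libraries, 13.5 to 17.3 with anti-IgM and 11.6 to 17.8 with LPS. The sums in *Ubqln1*-/- cells were 27.5 to 50.7, 13.8 to 16.4 and 15.2 to 20.4. *Adgre1* lay between 9.11 and 38.0 CPM at rest and between 4.66 and 9.97 with anti-IgM in WT cells, while *Fcgr1* was at 0.0549 CPM or less in every library. On the same scale *Fcgr2b* went from a mean of 139 to 56.9 CPM with anti-IgM in WT cells, and *Lyn* from 408 to 178. The part of these cells in the 2 falls was not tested.

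*Cd72* (Entrez gene 12517, chromosome 4, 43447724 to 43455102) encodes a lectin-like receptor that recruits SHP-1 and binds the semaphorin SEMA4D. It rose with both stimuli, unlike the 7 genes that fell. Resting WT cells held 342, 274 and 252 RPKM, anti-IgM cells 605, 458 and 507, and LPS cells 550, 440 and 388. Every stimulated library was above every resting one, and the stimuli overlapped each other. The rise was 0.86 with anti-IgM (SE 0.13, adjusted p = 2.45e-05) and 0.67 with LPS (SE 0.13, adjusted p = 0.000331), and 0.74 and 0.61 in *Ubqln1*-/- cells.

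Exons of *Cd72* overlap those of *Tesk1*, a kinase gene on the opposite strand, over 1423 of 3422 annotated bases, and the library kit does not keep strand. The counted width of *Cd72* was 1503 bases, and how much of the overlap lies within it was not determined. *Tesk1* itself rose by 0.55 with anti-IgM in WT cells (SE 0.07, adjusted p = 2.19e-06) and by 0.20 with LPS (SE 0.07, adjusted p = 0.0176). In CPM, *Cd72* gained 352 with anti-IgM and 255 with LPS, and *Tesk1* gained 104 and 33.3. The *Cd72* gain exceeded the gain of *Tesk1* with both stimuli. Set against the whole stimulated level of *Tesk1*, it was above with anti-IgM (329 CPM) and just below with LPS (258 CPM). How far shared reads enter either count was not tested. No annotated gene overlapped exons of *Cd79a*, *Cd79b* or *Siglecg*, and those overlapping the remaining 5 were noncoding transcripts sharing 104 to 479 bases (*Gm29439* with *Cd22*, *Gm38204* with *Fcgr2b*, *Gm26857* with *Lyn*, *Gm20531* with *Ptpn6* and *R74862* with *Cd81*).

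With either stimulus the summed mRNA of *Cd22*, *Siglecg*, *Fcgr2b* and *Cd72* came to be mostly *Cd72*, whose count may include *Tesk1* reads. Other inhibitory receptors are not in this sum. The summed RPKM of the 4 receptors was 763 ± 141 at rest, 646 ± 93.4 with anti-IgM and 671 ± 116 with LPS in WT cells (SD, n = 3). Both means were lower than at rest, by less than the resting SD. That SD ignores the replicate numbers, and a change of the sum within a number was not tested. *Cd72* made up 38.0% ± 0.958 of this sum at rest, 81.0% ± 1.49 with anti-IgM and 68.4% ± 3.18 with LPS. *Cd22* went from 30.2% to 10.3% and 15.3%, *Siglecg* from 19.7% to 3.01% and 8.53%, and *Fcgr2b* from 12.2% to 5.75% and 7.79%. The *Cd72* shares in *Ubqln1*-/- cells were 38.9%, 79.1% and 68.2%.

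The sum of the signal chains fell relative to the sum of the 4 receptors, which includes the rise of *Cd72*. *Siglecg* had larger log2 falls than either chain with both stimuli in WT cells, as did *Cd22* with LPS. With anti-IgM *Cd22* (−1.80, SE 0.22) and *Cd79a* (−1.77, SE 0.13) lay closer together than either SE. Summed *Cd79a* and *Cd79b* RPKM was 3.77 ± 0.483 times the receptor sum at rest in WT cells, 1.47 ± 0.0784 times with anti-IgM and 2.66 ± 0.314 times with LPS. In the libraries the ratio ran from 3.21 to 4.06 at rest, 1.38 to 1.53 with anti-IgM and 2.46 to 3.02 with LPS, without overlap. Such ratios of mRNA say nothing of the proteins on the cell surface.

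**Figure D3:**
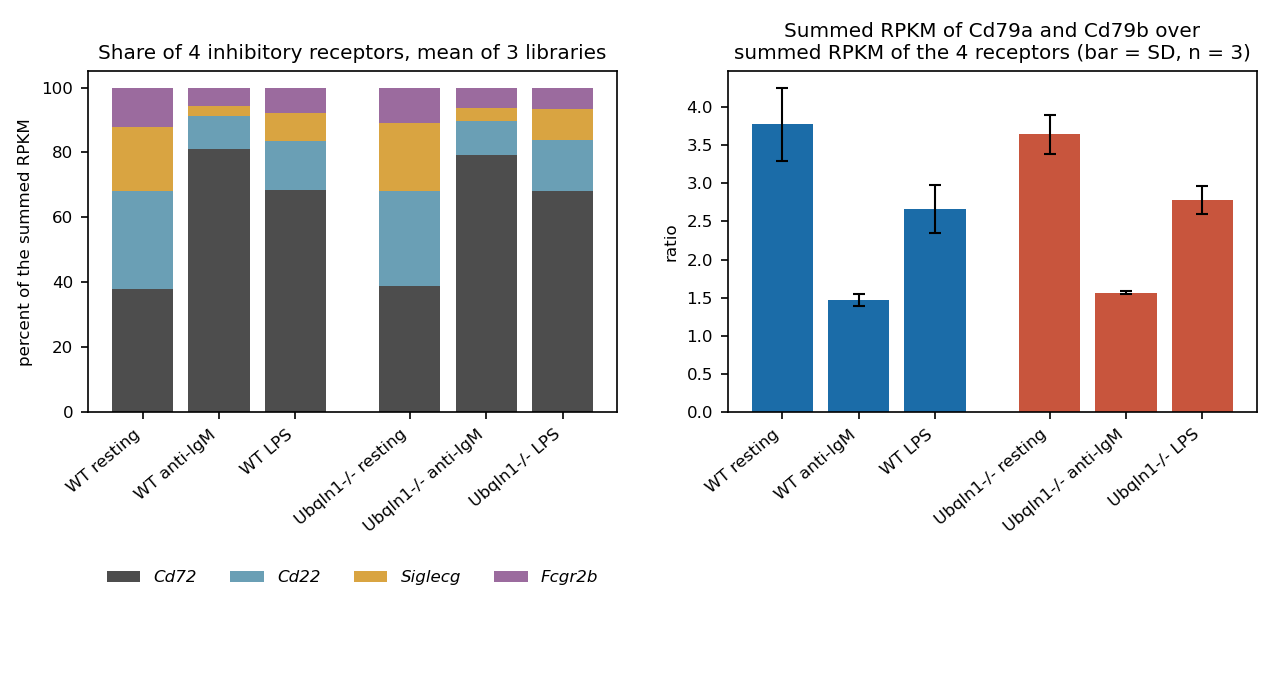
Left, the share of *Cd72*, *Cd22*, *Siglecg* and *Fcgr2b* in their summed RPKM (vertical axis, percent, mean of 3 libraries) in the 6 groups. Right, the ratio of the summed RPKM of *Cd79a* and *Cd79b* to that sum (mean, bar = SD, n = 3), which goes from 3.77 at rest to 1.47 with anti-IgM in WT cells, while the *Cd72* share goes from 38.0% to 81.0%.

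*Lyn* (Entrez gene 17096, chromosome 4, 3678068 to 3791612) encodes the kinase that acts on both ITAM and ITIM tails. It varied little at rest, with 116, 118 and 121 RPKM in WT cells. Anti-IgM cells held 50.7, 48.5 and 55.3 and LPS cells 67.2, 62.0 and 79.1, so that the 3 groups did not overlap. The log2 fold change was −1.20 with anti-IgM (SE 0.09, adjusted p = 1.13e-08) and −0.77 with LPS (SE 0.09, adjusted p = 2.03e-06). A second entry of the count tables, Entrez gene 100862590, had no symbol in the RefSeq table and differed from *Lyn* by at most 3 counts in any library, so the same reads appear to be listed under both numbers.

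*Ptpn6* (Entrez gene 15170, chromosome 6, 124720707 to 124738709) encodes SHP-1, the phosphatase recruited by CD22, CD72 and Siglec-G. Resting WT cells held 335, 283 and 237 RPKM, anti-IgM cells 363, 268 and 271, and LPS cells 369, 285 and 252. The groups overlapped throughout. The log2 fold change was 0.08 with anti-IgM (95% interval −0.24 to 0.40, adjusted p = 0.671) and 0.08 with LPS (−0.24 to 0.40, adjusted p = 0.657). Changes within these intervals were not excluded by this fit. The values in *Ubqln1*-/- cells were 0.13 with each stimulus, with upper bounds of 0.45.

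*Cd81* (Entrez gene 12520, chromosome 7, 143052750 to 143067930) fell least among the 7. Resting WT cells held 99.3, 102 and 100.2 RPKM, anti-IgM cells 72.5, 62.3 and 65.5, and LPS cells 69.2, 82.2 and 82.2. All stimulated libraries were below all resting ones, and the stimuli overlapped. The fall was −0.59 with anti-IgM (SE 0.08, adjusted p = 4.9e-06) and −0.37 with LPS (SE 0.08, adjusted p = 0.000614).

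Responses to the stimuli were then compared directly. In WT cells 7 of the 9 genes were called, all higher with LPS than with anti-IgM, where 32.4% of all genes were called and 17.4% were higher. In *Ubqln1*-/- cells 6 were called, again all higher (31.3% and 16.8%). The differences were 1.56 for *Siglecg* (SE 0.20, adjusted p = 8.78e-06), 1.15 for *Cd79a* (SE 0.12, adjusted p = 1.42e-06) and 0.77 for *Cd79b* (SE 0.10, adjusted p = 1.94e-05) in WT cells, and 1.45, 1.12 and 0.81 in *Ubqln1*-/- cells. The chains and *Siglecg* thus kept more mRNA under LPS in both genotypes.

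The remaining 4 calls in WT cells were smaller. *Lyn* differed by 0.43 (SE 0.09, adjusted p = 0.0014) and 0.33 in *Ubqln1*-/- cells. *Cd22* differed by 0.64 (SE 0.21, adjusted p = 0.0275), *Fcgr2b* by 0.46 (SE 0.15, adjusted p = 0.0286) and *Cd81* by 0.22 (SE 0.08, adjusted p = 0.038) in WT cells. In *Ubqln1*-/- cells *Cd22* differed by 0.62 (adjusted p = 0.0334) and *Cd81* by 0.21 (adjusted p = 0.0479). Without a replicate block these calls, except that of *Lyn* in WT cells, depended on the settings or on which libraries were kept. They held in edgeR with the replicate number as a block. The adjusted p was then 4.98e-05 for *Cd22*, 1.95e-06 for *Fcgr2b* and 0.0214 for *Cd81* in WT cells. In *Ubqln1*-/- cells it was 8.48e-05 for *Cd22*, 8.39e-05 for *Lyn* and 0.0288 for *Cd81*. In *Ubqln1*-/- cells *Cd81* was not called with DESeq2, RLE factors, library totals, either other filter or only the groups compared (adjusted p from 0.0522 to 0.201), and *Cd22* was not called with library totals (adjusted p = 0.0585). In WT cells *Cd22*, *Fcgr2b* and *Cd81* were not called with only the groups compared (adjusted p = 0.0751, 0.0605 and 0.137), nor *Cd81* with library totals (0.124) or the looser filter (0.0564). In WT cells *Cd22* lost its call without the LPS replicate 1, where the difference was 0.40, or the anti-IgM replicate 2 (0.47). *Fcgr2b* lost it without the LPS replicate 3 (0.31) or the anti-IgM replicates 1 (0.45) or 2 (0.38), and *Cd81* without replicate 2 or 3 of either stimulus (0.17 to 0.21). Without the anti-IgM replicate 2, 4 genes were called in place of 7. In *Ubqln1*-/- cells *Lyn* lost its call without the anti-IgM replicate 1 (0.27) or the LPS replicate 3 (0.25), *Cd22* without 3 of the 6 libraries and *Cd81* without 5. *Fcgr2b* in *Ubqln1*-/- cells was at 0.13 (95% interval −0.20 to 0.45), not called. *Cd72* was at −0.19 in WT (95% interval −0.47 to 0.09) and *Ptpn6* at 0.00 (−0.31 to 0.32). With the replicate number as a block *Cd72* in WT cells was at −0.19 (SE 0.08, edgeR adjusted p = 0.0526), still not called.

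The loss of *Ubqln1* was compared in each condition. None of the 9 genes was called in resting cells, with anti-IgM or with LPS (0 of 9, against 0.0565%, 0.0989% and 0.0424% of all genes). None had an unadjusted p under 0.05 in edgeR without a block. With the replicate number as a block none was called either (lowest edgeR adjusted p 0.212). The differences largest against their SE were then *Fcgr2b* and *Siglecg*. They were 0.17 (SE 0.055) and 0.36 (SE 0.12) with anti-IgM, and −0.17 (SE 0.055) and 0.24 (SE 0.11) with LPS. limma with voom and DESeq2 also called 0. The log2 differences between *Ubqln1*-/- and WT cells lay between −0.13 and 0.14 at rest, −0.03 and 0.34 with anti-IgM, and −0.17 and 0.23 with LPS. The outermost ends of the 95% intervals over the 9 genes were −0.44 to 0.54, −0.37 to 0.75 and −0.49 to 0.63 in turn. For each gene, differences within its own interval in this fit were not excluded. The plasma cell markers, *Irf4* included, summed to 549 to 634 CPM in resting *Ubqln1*-/- cells and 1828 to 2020 with anti-IgM, in both below the WT libraries. With LPS they summed to 1457 to 1579, overlapping the 1531 to 1720 of WT cells. Their part in these values was not tested. The responses to anti-IgM and LPS were also compared between genotypes as interaction terms, and 0 of the 9 and 0.0% of all genes were called. The differences of the responses lay between −0.11 and 0.23 for anti-IgM and between −0.11 and 0.11 for LPS.

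*Siglecg* had the largest difference between genotypes. In *Ubqln1*-/- cells it stood at 180, 157 and 164 RPKM at rest, 25.6, 23.7 and 24.8 with anti-IgM, and 75.2, 55.4 and 71.6 with LPS. It was higher than in the WT library of the same replicate number in 8 of 9 pairs, and the groups overlapped in each condition. The difference was 0.14 at rest, 0.34 with anti-IgM (95% interval −0.08 to 0.75) and 0.23 with LPS, and 0.23 over the mean of the 3 conditions (SE 0.11, adjusted p = 0.478), where 1.16% of all genes were called. With the replicate number as a block the mean difference was 0.25 (SE 0.06, adjusted p = 0.0268) and passed the threshold, as did 2.94% of all genes in this direction. Between genotypes, same-numbered samples correlated above 0.1 in 2 of 3 pairs at rest and in 3 of 3 with anti-IgM and with LPS.

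*Cd81* went the other way. In *Ubqln1*-/- cells it held 97.8, 91.1 and 86.0 RPKM at rest, 72.3, 61.1 and 62.4 with anti-IgM, and 74.8, 76.4 and 76.0 with LPS. It was higher than in the matching WT library in 1 of 9 pairs, and the resting groups did not overlap, as for 7.89% of all genes. The difference at rest was −0.13 (95% interval −0.30 to 0.03, adjusted p = 1.00).

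**Figure D4:**
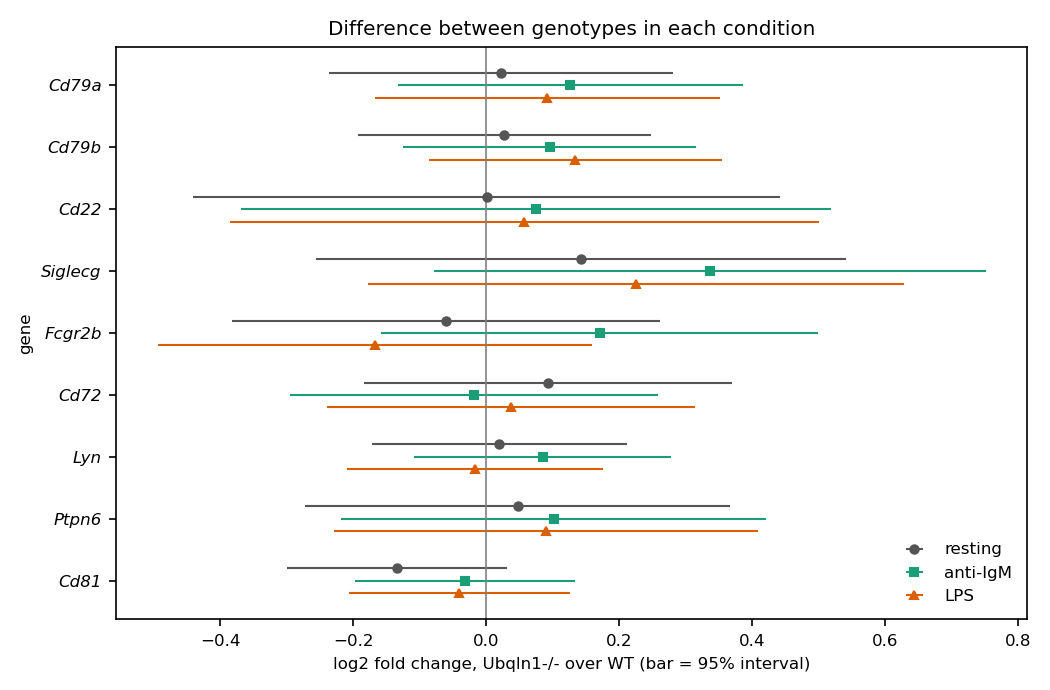
Log2 fold change of each gene in *Ubqln1*-/- over WT cells (horizontal axis) at rest, with anti-IgM and with LPS, with bars for the 95% interval. Every interval includes 0, and *Siglecg* with anti-IgM lies farthest from it, at 0.34.

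Other genes of the pathway were taken from lists by role. Of 47 listed genes, 43 were tested. The immunoglobulin genes *Ighm*, *Ighd* and *Igkc* were not analysed here, and *Cd300a* did not pass the filter. In WT cells 29 of the 43 fell and 10 rose with anti-IgM (32.2% and 32.4% of all genes), and 22 fell and 5 rose with LPS (30.1% and 31.2%). The medians were −0.79 and −0.39, where those of all genes were −0.01 and −0.01. Between genotypes 0 of the 43 were called over the mean of the 3 conditions (1.16% of all genes).

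*Cr2*, the complement receptor, rose by 0.36 with anti-IgM and 0.64 with LPS. Of 6 other tetraspanins, 4 fell and 1 rose with anti-IgM, and 3 fell and 1 rose with LPS. *Tspan32* fell by 1.74 and *Cd37* by 1.20 with anti-IgM, while *Cd82* fell by 0.52 with anti-IgM and rose by 1.59 with LPS.

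Of 9 other inhibitory receptors, 6 fell and 3 rose with anti-IgM, and 3 fell and 2 rose with LPS. *Pdcd1*, which encodes PD-1, rose by 3.51 with anti-IgM (SE 0.54, adjusted p = 2.27e-05) but from a very low level, 0.378 to 4.26 RPKM, and *Cd5* rose by 3.37 (SE 0.26, adjusted p = 1.22e-08) from 0.740 to 7.35. With LPS *Pdcd1* was at −0.48 and *Cd5* at −0.41, neither called. *Ceacam1* fell by 3.02 with anti-IgM and 2.33 with LPS, and *Lilrb4a* rose by 2.47 and 2.28.

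On the ligand side all 3 genes fell with anti-IgM and 2 with LPS. *Cmah*, the enzyme that makes the N-glycolyl form of sialic acid, fell from 18.9 to 5.74 RPKM with anti-IgM and 6.66 with LPS, and *St6gal1*, which adds the α2,6-linked sialic acid bound by CD22, fell by 0.80 and 0.98. Of 11 inhibitory effectors, 6 fell and 2 rose with anti-IgM and 6 fell and 1 rose with LPS. The ubiquitin ligase gene *Cblb* fell by 1.28 with anti-IgM and was at −0.05 with LPS. *Dok3*, an adaptor that restrains BCR signaling, fell by 1.08 and 1.83. *Ptpn22* rose by 0.77 with anti-IgM (adjusted p = 0.00505) and fell by 1.82 with LPS.

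Of 12 activating kinases and adaptors, 9 fell and 3 rose with anti-IgM, and 8 fell and 0 rose with LPS. *Syk*, the kinase recruited by the CD79 chains, fell by 2.48 with anti-IgM (SE 0.09, adjusted p = 1.75e-11), from 222 to 39.9 RPKM, and was at −0.03 with LPS. *Btk* fell by 0.98 and 1.16, and *Vav1* by 0.22 (adjusted p = 0.0444) and 0.75.

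**Figure D5:**
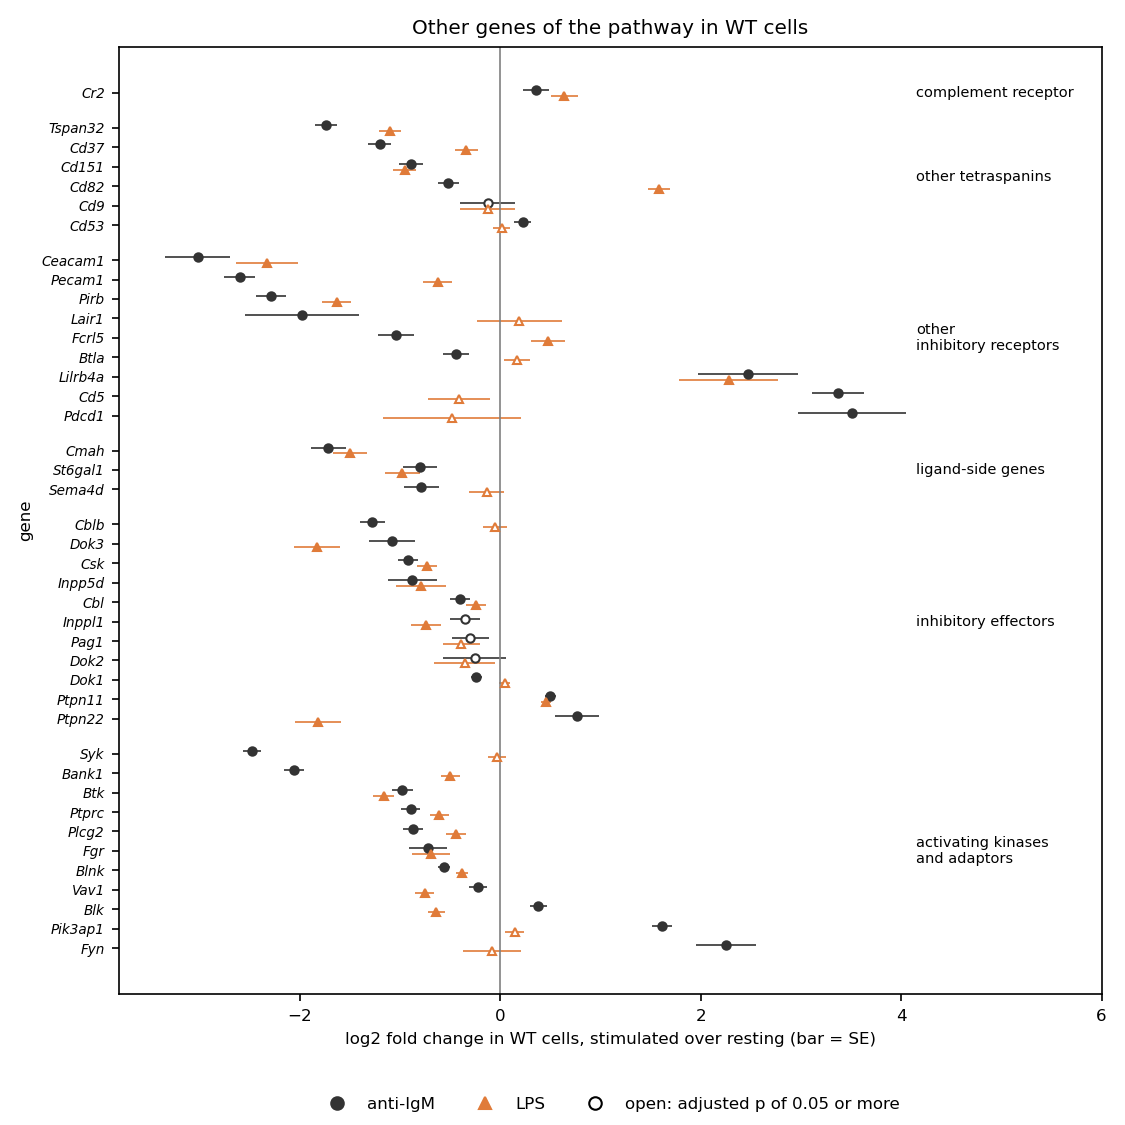
Log2 fold change of 41 of the 43 other pathway genes in WT cells, stimulated over resting (horizontal axis, bar = SE), grouped by list. Circles are anti-IgM, triangles LPS and open marks have an adjusted p of 0.05 or more. Most marks lie left of 0, with *Pdcd1* (3.51) and *Cd5* (3.37) with anti-IgM farthest to the right.

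Across the 18 libraries the falling genes followed each other, which mostly reflects the group means they share. Pearson's r of log2 CPM, given as a description, was 0.99 for *Cd79a* with *Cd79b* and 0.99 for *Cd79b* with *Siglecg*. *Cd72* ran opposite to the 7 falling genes (r from −0.91 to −0.73). Among 9093 genes with a mean of at least 10 CPM, the closest to *Siglecg* were *Pik3cg* and *Slc43a2*, to *Cd79a* *Rassf2* and *Mapk11*, to *Cd79b* *Clic1* and *Arhgef1*, and to *Cd22* *Traf3ip3* (r from 0.99 to 1.00). The closest to *Fcgr2b* were an entry with no symbol and *Ptprj* (0.99 and 0.99), and to *Lyn*, beside the entry with the same counts, *Trim7* (1.00). *Cd72* was closest to *Xpo6* and *Hivep3* (0.96 and 0.96), *Cd81* to *Pbxip1* and *Snx8* (0.95 and 0.94), and *Ptpn6* to *Hspa2* and *H2aj* (0.88 and 0.84).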

How the data were processed

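Counts of exonic reads per Entrez gene were deposited by the authors without normalization, with the counted gene width and RPKM. Per the submitters' processing notes, reads were aligned to GRCm38 with GSNAP, and R 3.2.2 with limma was used. The counting program, its strand setting and the annotation release are not given in the sources used here. The width, in bases, is a deposited value and entered only the level per length. The deposited RPKM divides the authors' count by the width and a library total, and was used only as an alternative.

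The 9 genes and the other gene lists were chosen with earlier results of these data known. Named were the 9 genes, the 2 pathway genes of each list with the largest absolute change in WT cells for each stimulus, the 2 genes most alike in pattern to each of the 9, *Ubqln1* and genes with overlapping exons. A few genes that this rule names are not reported here. Entrez numbers were matched to the RefSeq table of GRCm38.p6 (25035 of 28096, 89.1%, holding 95.8% to 96.2% of counts). Positions and overlaps came from the GENCODE annotation of GRCm38. RPKM was computed here from the count, the width and the TMM-scaled library size.

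Tests used edgeR 4.0.16 in R 4.3.3 (TMM, its expression filter, quasi-likelihood F test, 14161 genes, Benjamini-Hochberg adjustment), with 1 term for each of the 6 groups over all 18 samples and no block, as the study's models have a single term. All p-values printed come from this test unless another setting is named beside them. SE is the log2 fold change divided by the square root of F. limma 3.58.1 with voom and DESeq2 1.42.0 were alternatives, and the scripts were tested on simulated counts. Depth (15368941 to 41072854 counts) gave at least 927 counts for each of the 9 genes in every library, so the spread between libraries set the precision.

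Replicate numbers 2 and 3 come from the titles and 1 was given by elimination. Samples of the same number deviated together (mean correlation 0.266, 43 of 45 pairs over 0.1), in all 3 pairs of each comparison of stimuli in 3 of 3 pairs between genotypes with anti-IgM and with LPS, and in 2 of 3 at rest (lowest 0.0826).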

Additional observations from a re-analysis of the deposited data

How the results depend on the processing

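Alternatives were limma with voom, DESeq2, RLE factors, library totals alone, 2 other filters on low counts, a replicate block, only the groups compared (the same fit for the mean of the 3 conditions) and leaving out each library. Against resting cells the called genes kept their direction in 448 of 448 such settings and their call in 447; *Cd81* with LPS in *Ubqln1*-/- cells was at −0.22 (edgeR adjusted p = 0.054) without the resting replicate 1. Of the WT genes higher with LPS than with anti-IgM, 7 were called, 4 with only the groups compared, and 4 to 7 when a library was left out, the lowest without the anti-IgM replicate 2. *Cd22* there was 0.40 without the LPS replicate 1. The replicate block raised the genes called higher in *Ubqln1*-/- cells over the mean of the 3 conditions from 0 to 1 (*Siglecg*, 0.25) and changed no other call of the 9 genes.

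Values that were not called changed sign. *Ptpn6* between LPS and anti-IgM in WT cells was −0.0022 with DESeq2, −0.0022 with RLE factors, −0.0468 with library totals, −0.0024 with at least 10 counts in every sample, −0.0011 with only the groups compared, and −0.16 to 0.16 when a library was left out (−0.094 to 0.089 in *Ubqln1*-/- cells). Leaving out a library moved *Ptpn6* in WT cells from −0.072 to 0.21 with anti-IgM and from −0.087 to 0.21 with LPS, *Fcgr2b* between LPS and anti-IgM in *Ubqln1*-/- cells from −0.054 to 0.24, *Siglecg* between genotypes at rest from −0.0039 to 0.36, and its interactions from −0.020 to 0.36 for anti-IgM and from −0.13 to 0.30 for LPS. The causes were not tested. The deposited RPKM were 83.9% to 88.9% of those computed here, 33 of 54 levels moved by over 1 SD, and the order of the 9 genes was the same in 5 of 6 groups.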
